A study of Rattus norvegicus with 30 samples.

Results

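The genes described here make, hold back and follow the enzymes that remodel the heart's extracellular matrix. They are the matrix metalloproteinases Mmp2, Mmp3, Mmp9 and Mmp14, the tissue inhibitors of metalloproteinases Timp1, Timp2, Timp3 and Timp4, and the crosslinking enzymes Lox and Loxl1. Members were listed by gene symbol, with earlier results of these data known, and every array row that carried a member's name was kept. This gave 10 genes with 15 rows, of 32982 gene or probe names with 37272 rows over all arrays. Of the 15 rows, 14 stood in the deposited tables of the 3 ages, and Mmp3 stood in none.

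The hearts came from untreated inbred Fischer 344 rats of the NCTR colony, with 8, 21 and 78 weeks of age represented by 5 females and 5 males each. Every rat received the same NIH-31 diet, and none carried a transgene. Whole heart RNA of each rat was labelled with Cy3 and read on a one-colour rat array, which gave 30 arrays in 6 groups of 5. The study asked whether the sexes differ in cardiac gene expression at each age. Levels are given as scaled signal, the spot intensity divided by the array's 75th percentile, so a level of 1 means the signal at that percentile. Differences are given on the log2 scale.

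Metalloproteinases are zinc enzymes that cut collagens and other matrix proteins. Most are secreted as inactive precursors. Mmp2 and Mmp9 are gelatinases, Mmp3 is a stromelysin, and Mmp14 is anchored in the cell membrane and activates the Mmp2 precursor in a complex that also holds Timp2. The TIMP proteins bind the active site of these enzymes. Timp3 is bound to the matrix, and Timp4 is known for its high expression in heart. Lox and Loxl1 are copper enzymes that oxidise lysines of collagen and elastin so that the fibres become crosslinked, and Loxl1 is known for its part in elastic fibres. In the heart most of these genes are expressed by fibroblasts and other non-muscle cells, and the balance of cutting, inhibition and crosslinking sets how stiff the tissue is.

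Several members had more than 1 row, and the rows of a name did not always read the same strand. The probes below are shown for that reason, in lower case, from 5′ to 3′, with the positions that the array files give on rat build rn3. Each probe has 60 bases.
Timp1, main row: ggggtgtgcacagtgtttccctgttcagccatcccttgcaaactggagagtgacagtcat
Timp1, second row: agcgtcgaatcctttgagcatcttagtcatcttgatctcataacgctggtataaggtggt
Timp2, second row: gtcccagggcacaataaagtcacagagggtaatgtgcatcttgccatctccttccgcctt
Loxl1, main row, first of its 2 probes: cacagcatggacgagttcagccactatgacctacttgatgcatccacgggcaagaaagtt
Loxl1, second row: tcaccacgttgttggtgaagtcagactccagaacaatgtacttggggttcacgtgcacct

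The main Timp1 probe lies on the minus strand at chrX:12548256-12549259, so its 60 bases are spread over 1004 bases of the genome. The second Timp1 probe lies on the plus strand at chrX:12549678-12549925. The second Timp2 probe lies on the plus strand at chr10:108328771-108328830. The main Loxl1 row averages 2 probes, both on the minus strand, at chr8:62107372-62107431 for the one shown and chr8:62102225-62102284 for the other. The probe of the second Loxl1 row lies on the plus strand at chr8:62104420-62104479. RefSeq places all 3 genes on the minus strand of rat build GRCr8, so the second rows run against the direction of their gene. Of 5385 probes with a RefSeq mRNA name, 94.1% ran in the direction of the gene. The main Mmp14 probe lies on the plus strand at chr15:32518712-32518771 and the second Mmp14 probe on the minus strand at chr15:32518520-32518579. The strand of the Mmp14 gene is not given here. What the second rows measure was not tested. The exons that hold these probes are not given, since no annotation of rn3 was used here.

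The row of each gene that was well above background on most arrays was taken as its main row, and for Mmp2 and Timp2, whose rows tied at 30 arrays, the row with the higher mean level was taken. The main rows of 8 members, Lox, Loxl1, Mmp2, Mmp14, Timp1, Timp2, Timp3 and Timp4, were well above background on all 30 arrays, and counts of members refer to these 8. No member spot was saturated. Mmp3, Mmp9 and the second Timp1 row were well above background on 0 of 30 arrays, so no fold is given for them. The second Loxl1 row passed on 18 arrays and the second Mmp14 row on 13.

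2 features of the arrays touch all results. At 78 weeks the array labelled female replicate 2 held male levels of Ddx3y and Eif2s3y, genes of the Y chromosome, and the array labelled male replicate 3 held female levels of both. Ddx3y reached -1.81 on the log2 scale among arrays labelled female at 78 weeks and went down to -6.37 among those labelled male, whereas in the other 4 groups females lay between -6.90 and -5.97 and males between -2.05 and -1.48. Labels were kept. The sex differences at 78 weeks are given with and without these 2 arrays, and other results at 78 weeks include both unless stated. Unless stated, values of a single sex at 78 weeks therefore hold an array at odds with its label. The 21-week male arrays were the weakest, with a 75th percentile of 76.9 to 198 intensity units and a median of 142 against group medians of 202 to 232 elsewhere, and with 17223 to 22240 spots well above background.

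**Figure D1:**
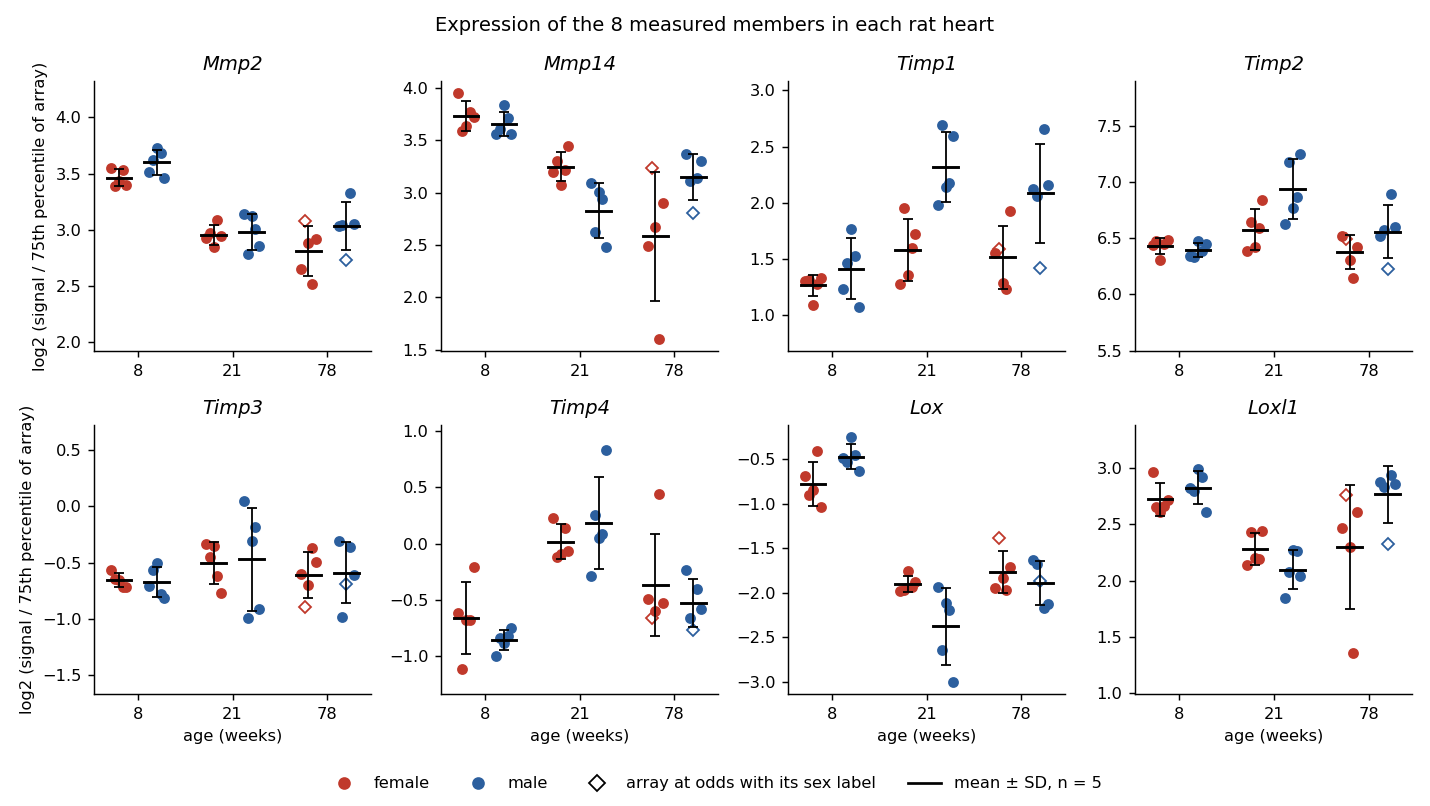
Scaled signal (log axis) of the 8 measured members in each of the 30 rats, with 1 point per rat, females and males side by side at 8, 21 and 78 weeks. Lox, Mmp2 and Mmp14 lay higher at 8 weeks than at 78 weeks in all rats, while Timp3 overlapped between all groups.

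Members by sex. No member was called different between the sexes at any age once p-values were adjusted over all rows of the table. The smallest adjusted p was that of Timp1 at 21 weeks, where males were higher. By limma with Benjamini-Hochberg adjustment, 0 of 8 members passed an adjusted p of 0.05 at 8, 21 or 78 weeks. Over all rows, 0.102%, 0.0511% and 0.0% were called at these ages. With the labels kept, 0 of 26553 rows were called at 78 weeks, so the count of members there does not show that the sexes were alike. At an unadjusted p under 0.05, limma gave 1, 4 and 1 of the 8 members, and the methods' t-test gave 2, 4 and 1, with 0 after adjustment. All rows gave 5.74%, 15.9% and 5.65% by limma at that unadjusted threshold.

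Timp1, the secreted inhibitor, showed the clearest separation. At 21 weeks the females had scaled signals of 2.85, 4.51, 2.97, 3.59 and 3.87, and the males had 4.60, 7.63, 5.21, 5.31 and 7.09. Every male lay above every female, which held for 3.1% of all rows well above background at that age. Males were 1.67-fold higher (female minus male -0.74 ± 0.19 SE, log2), with an exact permutation p of 0.00794, the smallest that 5 against 5 allows, and an adjusted p of 0.258 by limma. After normexp background correction the difference was -0.24. At 78 weeks the females had 3.20, 3.29, 2.65, 2.60 and 4.18, and the males had 4.76, 4.54, 2.90, 6.90 and 4.85. 4 of the 5 males lay above every female, and the array labelled male replicate 3 was the one that did not. The difference was -0.56 ± 0.22 with an exact permutation p of 0.0476 and an adjusted p of 0.856 by limma. At 8 weeks the groups overlapped, with 2.47 to 2.95 in females and 2.47 to 3.95 in males.

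Timp2, the inhibitor that also takes part in Mmp2 activation, was among the brightest signals. At 21 weeks the females had 98.0, 117, 99.3, 114 and 134 and the males had 115, 171, 129, 137 and 179. The groups overlapped. The difference was -0.37 ± 0.16 with an exact permutation p of 0.0476 and an adjusted p of 0.309 by limma, and it turned to 0.26 after normexp background correction. The second row of Timp2 passed background on all 30 arrays, and its difference there was -0.11. Timp3 and Timp4 overlapped between the sexes at all 3 ages. At 78 weeks 1 female, replicate 4, had a Timp4 signal of 1.5 against 0.692 to 0.775 in the other 4.

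Mmp14, the membrane-bound activator, was lower in males at 21 weeks and higher in males at 78 weeks, without an adjusted p under 0.05 at either age. At 21 weeks the females had 10.8, 11.5, 9.76, 11 and 12.8, and the males had 9.99, 7.26, 9.49, 9.02 and 6.57. The overlap was small, since only 1 male reached the lowest female. The difference was 0.41 ± 0.15 with an exact permutation p of 0.0159 and an adjusted p of 0.28 by limma. At 78 weeks the females had 6.17, 10.4, 6.96, 3.37 and 8.20 and the males had 11.3, 9.46, 7.59, 9.64 and 10.7, a difference of -0.55 ± 0.27. The highest female was the array labelled female replicate 2 and the lowest male the one labelled male replicate 3. The lowest female was replicate 4, without which the difference was -0.31.

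Mmp2, gelatinase A, had a main row that overlapped between the sexes at 8 weeks. Its second row did not. There the females had 0.957, 0.996, 0.981, 0.953 and 0.983 and the males had 1.16, 1.03, 1.08, 1.06 and 1.2, a difference of -0.18 ± 0.06 with an exact permutation p of 0.00794 and an adjusted p of 0.758 by limma. Every female lay below every male for 0.912% of rows well above background at 8 weeks. The probes of both Mmp2 rows overlap by 21 bases, of which 18 are identical.

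Lox had 0.727, 0.621, 0.645, 0.875 and 0.570 in females and 0.831, 0.807, 0.979, 0.862 and 0.758 in males at 8 weeks. The groups overlapped through the female at 0.875. The difference was -0.31 ± 0.12 with an exact permutation p of 0.0556 and an adjusted p of 0.806 by limma. At 21 weeks the direction was the other way, with 0.298, 0.299, 0.344, 0.309 and 0.318 in females and 0.306, 0.189, 0.273, 0.256 and 0.147 in males. That difference was 0.47 ± 0.20 with an exact permutation p of 0.0238 and an adjusted p of 0.302 by limma, and it was -0.027 after normexp background correction and 0.15 with the raw median signal. Loxl1 at 78 weeks had 6.04, 7.42, 5.38, 2.84 and 6.71 in females and 8.03, 7.75, 5.43, 8.42 and 7.88 in males, a difference of -0.46 ± 0.25. As for Mmp14, the 2 arrays with conflicting Y-linked genes were the highest female and the lowest male, and without female replicate 4 the difference was -0.22. The second Loxl1 row, which was well above background on all 10 arrays at 8 weeks, had 0.0852, 0.0614, 0.0689, 0.0638 and 0.0778 in females and 0.0913, 0.103, 0.0954, 0.0891 and 0.0839 in males there. Only 1 female reached the lowest male, and the difference of -0.38 ± 0.10 had an exact permutation p of 0.0159 and an adjusted p of 0.532 by limma.

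Without those 2 arrays, every female lay below every male at 78 weeks for Timp1, Mmp14, Loxl1, Mmp2 and the second Mmp2 row. Over all rows well above background on these arrays, 4.83% had every female below every male and 9.0% did not overlap in either direction. The differences were -0.74 ± 0.20 for Timp1, -0.80 ± 0.26 for Mmp14, -0.68 ± 0.26 for Loxl1, -0.36 ± 0.14 for Mmp2 and -0.61 ± 0.16 for its second row, and each had an exact permutation p of 0.0286, the smallest that 4 against 4 allows. The adjusted p by limma remained between 0.40 and 0.55. Timp2 overlapped, with a difference of -0.28. Lox, Timp3 and Timp4 also overlapped, with differences of 0.042, 0.035 and 0.18.

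**Figure D2:**
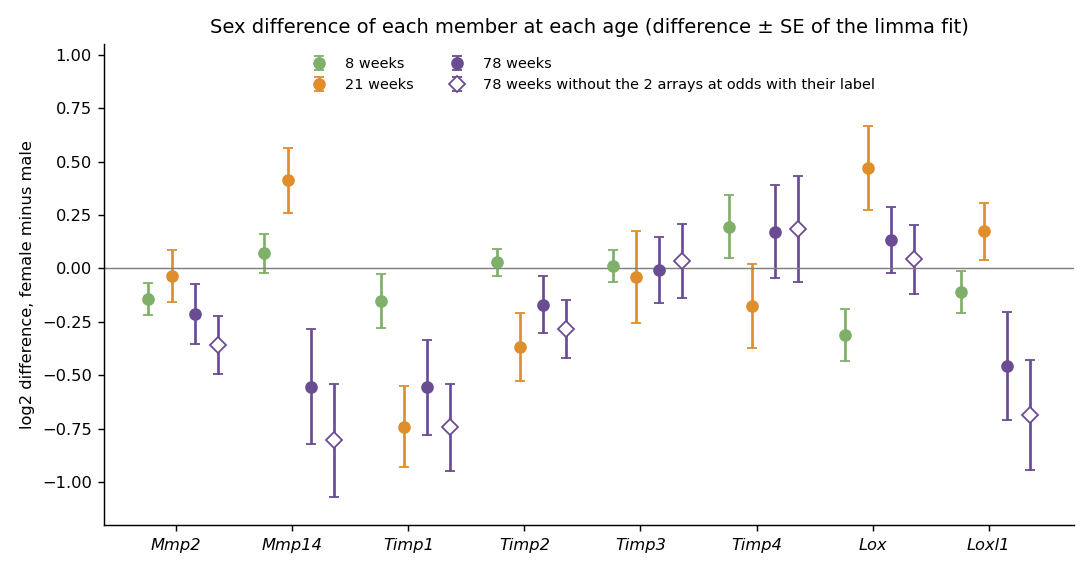
Female minus male difference (log2, vertical axis) with its SE for the 8 measured members at 8, 21 and 78 weeks and at 78 weeks without the 2 arrays whose Y-linked genes conflict with their label. Timp1 lay below 0 at 21 and 78 weeks, and the values of Timp1, Mmp14, Loxl1 and Mmp2 at 78 weeks lay further below 0 without the 2 arrays.

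Members by age. The tables of the ages were scaled separately, so ages were compared on signals divided by the 75th percentile of the same rows on every array. These values lay 0.116 to 0.243 below the table values on the log2 scale. The crosslinking enzyme Lox and the proteases Mmp14 and Mmp2 were lower at 21 and at 78 weeks than at 8 weeks, and Timp1 was higher. Ages were processed in different batches, so age and batch cannot be told apart, save where 2 ages share a slide or a scan day. Ages of 8 and 78 weeks share 1 slide and a scan day, and 21 and 78 weeks share a scan day. Ages of 8 and 21 weeks share neither. In whole heart RNA, fewer cells of a type and less RNA per cell cannot be told apart either.

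Of the 8 members, 1 was called higher and 3 lower at 78 than at 8 weeks, where 11.1% of all rows were called, 5.8% as higher and 5.3% as lower. At 21 against 8 weeks 3 were called higher and 4 lower, where 55.9% of all rows were called, 40.4% as higher and 15.5% as lower. At 78 against 21 weeks 2 were called higher and 2 lower, where 31.2% of all rows were called, 14.1% as higher and 17.1% as lower. The first and second of these comparisons share the 8-week arrays. The median over the 8 members was -0.10, -0.19 and -0.14, beside medians over all rows of 0.12, 0.27 and -0.16. Among rows well above background on every array compared, as the members were, 20.0%, 62.4% and 57.0% were called in the same order. Their medians were -0.013, 0.13 and -0.13. With normexp background correction 0, 2 and 0 members were called in the same order of comparisons, and 163, 443 and 208 of the 37272 rows. The members that kept their call were Lox (-0.70) and Timp4 (0.64) at 21 weeks. At 78 weeks Lox, Mmp14, Mmp2 and Timp1 then differed from 8 weeks by -0.57, -1.09, -0.93 and 0.23.

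The share of calls in each direction differed between settings of signal, background correction, scaling and arrays used. At 78 against 8 weeks 52.3% of the called rows were higher, and 73.6% were with the raw median signal and 69.3% within the shared scan day. At 21 against 8 weeks 72.3% were higher, and 27.1% were with normexp, 88.9% with the raw median signal and 53.1% with quantile normalization. At 21 weeks most calls came from the males, where 52.9% of all rows were called against 7.32% in females. Of the 8 members, 3 were called higher and 4 lower in males there, against 1 (Timp4) and 2 in females. At 78 against 8 weeks the shares of all rows were 3.88% in males and 2.47% in females. At 78 against 21 weeks 45.1% were higher, and 90.9% were with normexp, 26.2% with the raw median signal and 35.0% with the percentile taken over all rows.

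Lox had the largest age difference of the members. The 8-week females had a lowest, median and highest signal of 0.487, 0.557 and 0.756, and the 8-week males 0.645, 0.717 and 0.844. At 21 weeks the females had 0.254, 0.261 and 0.297 and the males 0.125, 0.219 and 0.262. At 78 weeks the females had 0.255, 0.282 and 0.383 and the males 0.223, 0.274 and 0.323. No rat of either later age reached the lowest 8-week rat. Lox was 2.33-fold lower at 78 weeks (-1.22 ± 0.11, limma adjusted p = 1.14e-08) and 2.86-fold lower at 21 weeks (-1.52 ± 0.11, adjusted p = 2.69e-10). Among 15555 rows well above background on every array compared, 22 had a lower difference than Lox at 78 weeks.

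The Lox difference stood in each sex and in the shared slide. It was -1.0 in females and -1.43 in males at 78 weeks, and -1.13 and -1.91 at 21 weeks. A single slide, as judged by scan time, held 1 rat of each sex at 8 and at 78 weeks. There the difference was -0.91 in the female pair and -1.0 in the male pair. The row averages 2 probes, which differed by -1.53 and -0.88 at 78 weeks. The second of them was well above background on 27 of 30 arrays.

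Mmp14 was lower at both later ages. At 8 weeks the signals were 12.0, 13.2 and 15.5 in females (lowest, median, highest) and 11.8, 12.2 and 14.3 in males. At 78 weeks they were 3.04, 6.38 and 9.45 in females and 7.0, 8.81 and 10.3 in males. All 10 older rats lay below all 10 young rats, and the 78-week females spread most. Mmp14 was 1.78-fold lower at 78 weeks (-0.84 ± 0.13, limma adjusted p = 3.22e-05) and 1.58-fold lower at 21 weeks (-0.66, adjusted p = 1.36e-04). Within sexes at 78 weeks the difference was -1.16 in females (adjusted p = 3.7e-04) and -0.52 in males (adjusted p = 0.124). On the shared slide it was -1.23 in the female pair and -0.19 in the male pair.

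Mmp2 was lower by a smaller and more even amount. The 8-week signals were 10.5, 10.8 and 11.7 in females and 11, 12.3 and 13.2 in males. The 78-week signals were 5.75, 7.39 and 8.44 in females and 6.64, 8.22 and 10.0 in males. These groups did not overlap over 10 against 10 rats. Mmp2 was 1.52-fold lower at 78 weeks (-0.61 ± 0.07, limma adjusted p = 1.37e-06) and 1.48-fold lower at 21 weeks (-0.56, adjusted p = 1.03e-06). The difference at 78 weeks was -0.65 in females and -0.57 in males, and -0.75 and -0.43 in the pairs of the shared slide. The second Mmp2 row differed by -0.56 at 78 weeks (adjusted p = 5.02e-05) and by -0.30 at 21 weeks (adjusted p = 0.0048). Of rows well above background, 4.49% did not overlap between 8 and 78 weeks and 13.4% did not between 8 and 21 weeks.

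Timp1 was the member called higher at 78 than at 8 weeks. At 8 weeks its signals were 2.14, 2.47 and 2.52 in females and 2.10, 2.76 and 3.40 in males. At 78 weeks they were 2.35, 2.93 and 3.8 in females and 2.68, 4.36 and 6.30 in males. Both sexes overlapped with their 8-week group. The rise was 1.37-fold over both sexes (0.45 ± 0.13, limma adjusted p = 0.0164), with 0.66 in males (adjusted p = 0.037) and 0.24 in females (adjusted p = 0.667). Without the 2 arrays with conflicting Y-linked genes it was 0.54 (adjusted p = 0.00379), and within the scan day that both ages shared it was 0.32 (adjusted p = 0.0526). At 21 weeks it was 1.52-fold over both sexes (0.60, adjusted p = 3.46e-04), and it was not called in females alone.

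Among the other inhibitors Timp4 rose at 21 weeks. Its medians went from 0.626 in females and 0.560 in males at 8 weeks to 0.953 and 1.06 at 21 weeks, a 1.81-fold rise (0.86, limma adjusted p = 7.51e-06). In females alone it was 0.67 (adjusted p = 0.0275). At 78 weeks the medians were 0.692 and 0.667, and the difference from 8 weeks of 0.32 had an adjusted p of 0.115, though it was called with the raw median signal (adjusted p = 0.0388). Timp2 was 0.34 higher at 21 weeks (adjusted p = 0.00168), a difference that was -0.038 under quantile normalization and 0.00024 with normexp. Timp2 differed by 0.05 and Timp3 by 0.06 between 78 and 8 weeks, and neither was called. The second Timp2 row was called in none of the 3 comparisons, with 0.28 at 78 against 8 weeks (adjusted p = 0.0823), 0.17 at 21 against 8 and 0.12 at 78 against 21 weeks.

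Loxl1 fell at 21 weeks. The 8-week medians were 6.33 in females and 7.07 in males. They were 4.59 and 4.22 at 21 weeks and 5.52 and 7.26 at 78 weeks. The 21-week rats all lay below the 8-week rats, 1.51-fold lower (-0.59, limma adjusted p = 1.92e-04). The difference of -0.25 at 78 weeks was not called (adjusted p = 0.157), save with the raw median signal (adjusted p = 0.0362), and the pairs of the shared slide went opposite ways, with -0.26 in females and 0.27 in males. The second Loxl1 row was well above background on 1 of 10 arrays at 21 weeks, and it differed by -0.020 between 78 and 8 weeks. The second Mmp14 row, whose probe lies on the strand opposite to that of the main row, differed by 0.12 there (limma adjusted p = 0.655).

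Between 21 and 78 weeks Lox (0.30, limma adjusted p = 0.0391) and Loxl1 (0.34, adjusted p = 0.0235) were higher at 78 weeks, and Timp2 (-0.28, adjusted p = 0.00808) and Timp4 (-0.54, adjusted p = 0.00139) were lower. Lox lost its call without the 2 arrays with conflicting Y-linked genes (adjusted p = 0.125), and in 12 of 30 fits that left out 1 array. Loxl1 lost its call with replicate number as a block (adjusted p = 0.0521). Within the scan day that these ages share, which holds 4 of the 10 arrays of 78 weeks, Lox differed by 0.13, Loxl1 by 0.26, Timp2 by -0.22 and Timp4 by -0.35, and limma called none of the 4. Timp2 was 0.067 under quantile normalization. In males 2 members were called higher and 2 lower, where 29.8% of all rows were called. In females 0 were called higher and 1 lower, where 9.29% of all rows were. The 4 calls over both sexes rest on the 21-week arrays, of which the male ones were the weakest.

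**Figure D3:**
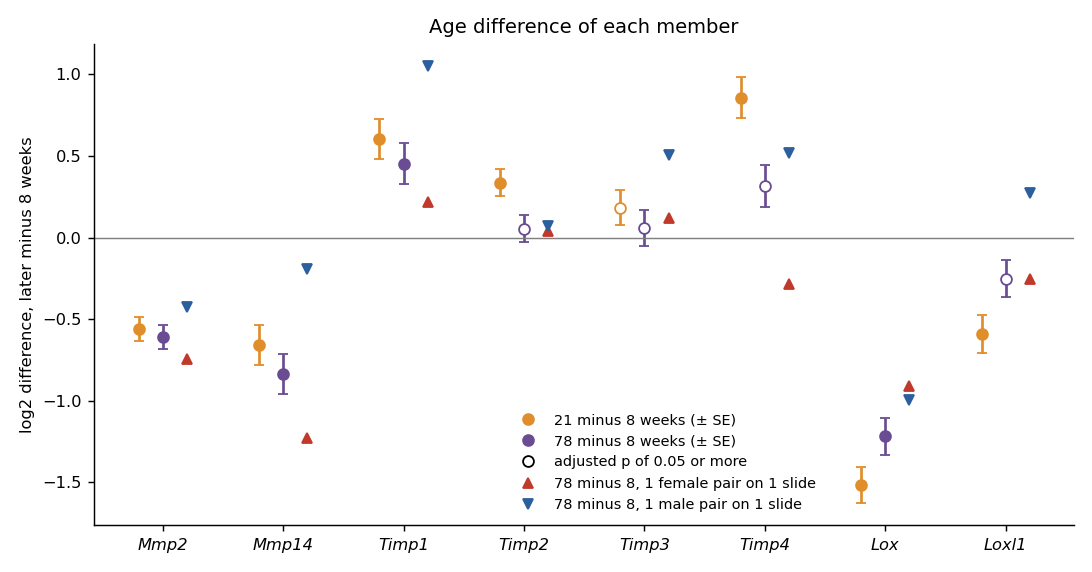
Difference from 8 weeks (log2, vertical axis, with SE) of the 8 measured members at 21 and at 78 weeks, with open points for an adjusted p of 0.05 or more and triangles for the pairs of rats that shared a slide. Lox, Mmp14 and Mmp2 lay below 0 at both ages and in both slide pairs, and Timp1 lay above 0.

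No sex-by-age interaction of a member was called. By limma 0 of 8 members had an adjusted p under 0.05 in any of the 3 interaction contrasts, where 0.0%, 0.00268% and 0.00268% of all rows were called at 78 against 8, 21 against 8 and 78 against 21 weeks. At an unadjusted p under 0.05 there were 1, 3 and 2 members, and 2.29%, 17.0% and 11.8% of all rows. The smallest p was that of Mmp14 between 21 and 78 weeks (-0.98, unadjusted p = 0.00118, limma adjusted p = 0.254), in which the change from 21 to 78 weeks was more negative in females. Lox, Timp1 and Timp2 had interactions of 0.78, -0.58 and -0.39 between 8 and 21 weeks, with adjusted p from 0.287 to 0.288.

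Related genes were counted in 5 lists chosen by gene symbol. A gene was counted as measured where it was well above background on at least 1 array of each group compared. None of the lists held a gene called between the sexes at any age by limma. By age, the counts of each list stand beside 5.8% of all rows called higher and 5.3% lower at 78 weeks, and 40.4% higher and 15.5% lower at 21 weeks.

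Most of the measured matrix genes, which include substrates of these enzymes, were called lower at both later ages. Of 15 measured matrix genes, 11 were called lower and 0 higher at 78 against 8 weeks, with a median of -0.77. At 21 weeks 13 were lower and 1, Dcn, was higher, with a median of -1.02. Col1a1 and Col3a1, the main fibrillar collagens of the heart, differed by -1.22 and -1.50 at 78 weeks. Col5a1 and Col5a2 differed by -1.22 and -1.19, and Sparc, a collagen-binding matricellular protein, by -1.04. Eln, the elastin gene and a Lox substrate, differed by -1.78 at 78 weeks and by -2.38 at 21 weeks, with 19 and 18 of the 20 arrays above background. Fbn1, fibrillin of elastic microfibrils, differed by -1.56 at 21 weeks.

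Of 13 measured genes of collagen crosslinking and processing, 6 were called lower and 0 higher at 78 weeks, and 10 lower and 0 higher at 21 weeks. The medians were -0.20 and -0.28. Loxl2, another lysyl oxidase, differed by -0.96 at 78 weeks and -1.39 at 21 weeks. Serpinh1, the collagen chaperone, differed by -0.67 at 78 weeks. Bmp1, which trims procollagens and activates Lox, differed by -0.52 and -0.70, and Plod1, a lysyl hydroxylase, by -0.50 and -0.74. The procollagen enhancer Pcolce differed by -0.48 and -0.31.

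Of 9 measured ADAM and ADAMTS proteases, 3 were called lower at 78 weeks and 5 at 21 weeks, and 0 were higher. They included Adamts9 at -0.55 and -0.85, the sheddase Adam17 at -0.59 at 78 weeks, and the aggrecanase Adamts5 at -1.03 at 21 weeks. The other metalloproteinases mostly lay near background, and 6 of 15 were measured at 78 against 8 weeks. Mmp23 at 78 weeks (0.28) and Mmp11 at 21 weeks (0.43) were called higher.

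Of 14 measured activators and regulators of the proteases, 4 were called higher and 0 lower at 78 weeks. They included Plaur, the urokinase receptor, at 0.96, Lrp1, an endocytic receptor for proteases, at 0.46, and the macrophage protease Ctss at 0.38. At 21 weeks 4 of 15 were called higher and 2 lower. Plaur, Ctss and Bsg were among the higher ones at 0.42, 0.34 and 0.60. Lrp1 and Thbs2, a secreted matrix regulator, were called lower there at -0.69 and -0.46.

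**Figure D4:**
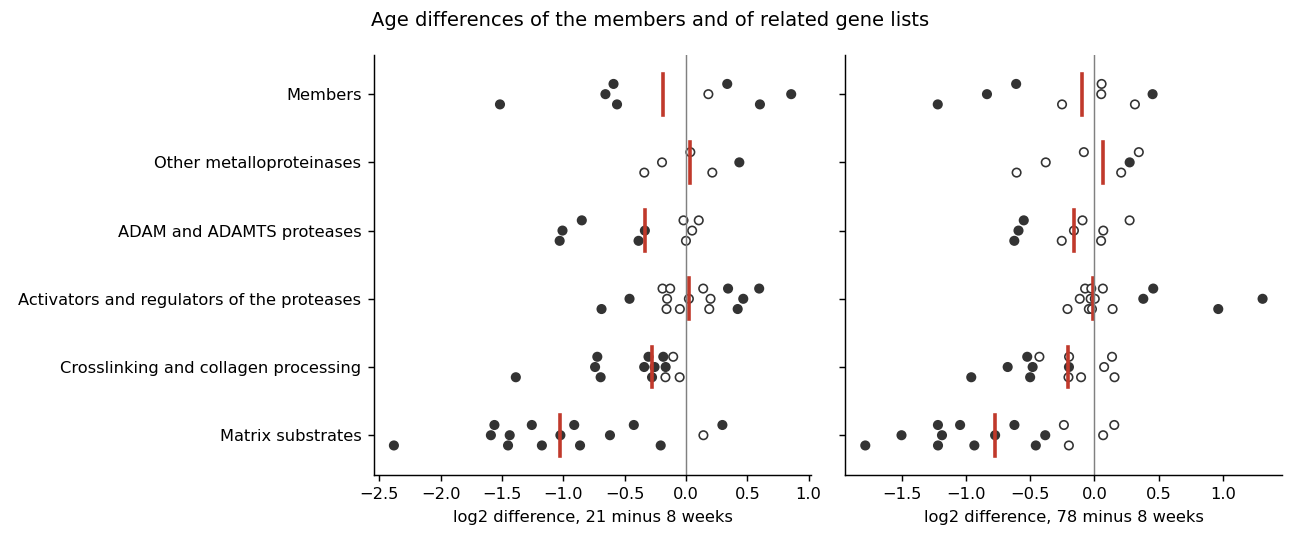
Difference from 8 weeks (log2, horizontal axis) at 21 weeks (left) and 78 weeks (right) for the members and for the measured genes of 5 related lists, 1 point per gene, filled where the adjusted p was under 0.05, with a red bar at the median. The matrix substrates lay furthest to the left, with medians of -1.02 and -0.77.

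Markers of the cells that a heart can hold were read on the same scale. All 7 cardiomyocyte markers were well above background on all 30 arrays, and at 21 against 8 weeks 5 of them were called higher and 1 lower. Their summed level ran from 958 to 1174 in females and from 882 to 1254 in males at 8 weeks, and from 1158 to 1561 and from 1253 to 2871 at 21 weeks. Of 6 endothelial markers 5 were called lower at 21 weeks, with sums of 65.7 to 84.1 in females and 58.9 to 68.6 in males at 8 weeks and 48.0 to 65.0 and 25.3 to 51.2 at 21 weeks. The summed level of 8 fibroblast markers, which include Col1a1, Col1a2 and Col3a1, ran from 195 to 227 in females and from 231 to 263 in males at 8 weeks. It ran from 109 to 135 and from 119 to 148 at 21 weeks, and from 81.6 to 137 and from 111 to 160 at 78 weeks. Of 7 measured fibroblast markers 3, the collagen genes, were called lower at 78 weeks, where Lum, Dcn, Pdgfra and Ddr2 differed by -0.20, 0.069, 0.0018 and -0.054. At 21 weeks 5 were called lower, Pdgfra (-0.49) and Ddr2 (-0.53) among them, and Dcn (0.30) was called higher. The summed level of 7 macrophage markers was 3.36 to 3.88 in females and 3.31 to 4.58 in males at 8 weeks. It was 3.74 to 4.30 in females and 4.16 to 5.29 in males at 21 weeks, and 3.35 to 4.33 and 4.11 to 7.01 at 78 weeks. The part of these cells in the members' differences was not tested.

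Members also varied together between rats of the same age and sex. After the mean of each group was removed, 7 of 28 pairs of members had an adjusted permutation p under 0.05 over the 30 rats. The inhibitors Timp1 and Timp2 rose and fell together (Pearson r = 0.82, Spearman rho = 0.78, permutation p = 8.4e-04 adjusted over the 28 pairs). Mmp14 followed Mmp2 (r = 0.77, rho = 0.79, adjusted permutation p = 0.00154) and Loxl1 (r = 0.84, rho = 0.67, adjusted permutation p = 0.00224). The pairs of Loxl1 with Timp1, Mmp2 and Timp2 and of Lox with Mmp14 had r from 0.53 to 0.65. Without the 2 rats farthest from the median, r was 0.74 for Timp1 and Timp2, 0.71 for Mmp14 and Mmp2, and 0.60 for Mmp14 and Loxl1. With the 2 arrays of conflicting Y-linked genes left out, 3 pairs passed. Within 8, 21 and 78 weeks, with 10 rats each, r was 0.40, 0.89 and 0.89 for Timp1 and Timp2, 0.84, 0.79 and 0.77 for Mmp14 and Mmp2, and 0.87, 0.25 and 0.94 for Mmp14 and Loxl1. Loxl1 and Mmp2 had 0.77, 0.014 and 0.79.

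All members of a rat share its array, so these correlations also hold what moves a whole array. The summed fibroblast markers, collagen genes among them, had r = 0.80 with Mmp14, 0.78 with Mmp2 and 0.72 with Loxl1 over the same 30 rats. The summed macrophage markers had r = 0.68 with Mmp2 and 0.58 with Timp1. Such values were not limited to these cells. The summed erythroid markers had r = 0.68 with Loxl1 and 0.54 with Mmp14, and the cardiomyocyte markers -0.54 with Mmp2. The skeletal muscle markers had r = -0.71 with Lox, and the neutrophil markers -0.65 with Timp3. Only 2 of 6 skeletal muscle and 2 of 5 neutrophil markers were well above background on all 30 arrays, though both sums hold every marker listed. Whether these sums follow the cells they are named for was not tested. The array's 75th percentile had r = 0.42 with Mmp2, -0.41 with Timp2 and -0.22 with Timp1. Their part in the pairs was not tested.

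**Figure D5:**
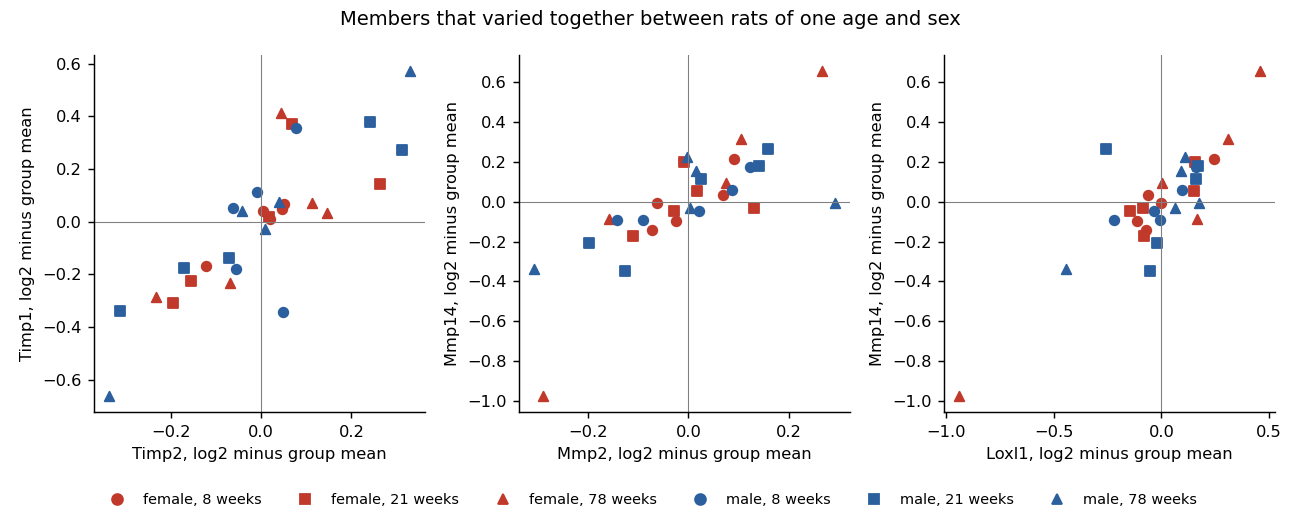
Scaled signal (log2, group mean removed) of Timp1 against Timp2, Mmp14 against Mmp2 and Mmp14 against Loxl1 in 30 rats, with 1 point per rat and symbols for age and sex. Points rise from lower left to upper right in each panel, with r of 0.82, 0.77 and 0.84.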

How the data were processed

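Total heart RNA of 30 Fischer 344 rats was hybridised to Agilent one-colour arrays. The authors averaged the probes of a gene, removed genes not expressed and divided each array's intensity by its 75th percentile; the deposited intensity values are linear, in 1 table per age. Rebuilding them from the deposited scanner files matched 99.4% of table rows within 0.0001 (log2), and control spots were left out. Flags for background came from the scanner files. The 21-week male columns named only their group. Sexes were compared within each age on log2 table values with limma 3.58.1 (R 4.3.3), two-sided, Benjamini-Hochberg over all rows, threshold 0.05, beside a two-sided exact permutation test of single rows. The methods name an analysis of variance, which for the 2 sexes is an equal-variance t-test, called the methods' t-test. Ages and the interaction were fitted on all 30 arrays, scaled alike, with slide (8 slides, 2 scan days) as a random block. Slides were inferred, in that arrays with the same scan time were taken as 1 slide. Female and male deviations of the same replicate number correlated above 0.1 in all 5 pairs at 78 weeks (0.13 to 0.29), each highest with its own number, but not in all pairs at 8 and 21 weeks (9 of 15 over the ages, from -0.20 to 0.54). The labels do not say what the number marks. Single rows were averaged over spots and probes on the log scale. Correlations used 100000 permutations within groups. All 10 members and every row of their names are described; of related genes past the threshold, the 6 largest differences of a list could be named. Members, lists and tests were chosen with earlier results of these data known. Scripts were tested on simulated data. Rats were separate animals, and the number of arrays limits precision. Alternatives covered background correction, normalization, filters on dim rows, blocks and leaving out arrays. The 2 arrays at odds with their label were left out as an alternative added after seeing the data. 1 gene of the related lists is counted but not reported by name here.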

Additional observations from a re-analysis of the deposited data

Results flagged for a closer look

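5 of 90 groups of 5 rats held a sample whose gap to the nearest other was over 0.71 of the group's range, and chance gives about 1 in 20. Values are log2 scaled signals. Loxl1 was 2.32 in male replicate 3 at 78 weeks, an array whose Y-linked genes conflict with its label, against 2.83 to 2.94 in the other males. Timp4 was 0.44 in female replicate 4 at 78 weeks against -0.66 to -0.50 in the others. Timp1 was 1.1 and Timp2 6.31 in female replicate 3 at 8 weeks, against 1.28 to 1.33 and 6.44 to 6.48. Mmp3 was -4.74 in male replicate 1 at 8 weeks against -7.12 to -6.45, and no array showed it well above background.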

How the results depend on the processing

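The counts of 0 members by sex and by interaction held under every alternative run. The counts called by age (4 at 78 against 8, 7 at 21 against 8 and 4 at 78 against 21 weeks) were 0, 2 and 0 with normexp. The first was 6 with the raw median signal, which added Loxl1 and Timp4. The last was 2 with quantile normalization or with the percentile taken over all rows and 0 within the shared scan day. With single arrays left out it ran from 2 to 4, and it was 2 without female replicate 2 or 5 at 78 weeks. The 7 correlated pairs were 15 with group means kept, 4 without the 2 farthest rats, 3 without the 2 arrays of conflicting label, and 2, 3 and 4 within 8, 21 and 78 weeks. With group means kept, r was -0.039 for Loxl1 and Timp1 and -0.13 for Loxl1 and Timp2. Sexes changed direction as follows, none of them called. Mmp2 at 21 weeks was 0.40 with normexp, 0.036 with the raw median and 0.033 with quantile normalization, and -0.081 to 0.0047 with single arrays left out. Timp2 was -0.031 at 8 weeks with quantile normalization and 0.26 at 21 weeks with normexp. Lox at 21 weeks was -0.027 with normexp. Timp3 at 78 weeks was 0.11 with normexp, 0.076 with the raw median and 0.035 without the 2 arrays, and 0.10 at 21 weeks with the raw median. With single arrays left out Timp3 ran from -0.023 to 0.050, -0.17 to 0.089 and -0.11 to 0.061 at 8, 21 and 78 weeks and Timp4 from -0.033 to 0.25 at 78 weeks. By age, Timp2 was -0.32 at 78 against 8 weeks with normexp, and under quantile normalization -0.038 at 21 against 8 and 0.067 at 78 against 21 weeks. Timp3 was -0.041 at 78 against 8 weeks within the scan day. At 78 against 21 weeks Mmp14 was 0.0039 and Mmp2 0.13 under quantile normalization, and Timp1 0.057 and Timp3 0.0057 within the scan day. The Timp2 interaction at 21 weeks was 0.20 with normexp. The causes were not tested. Replicate numbers as a block changed no sex call. This included 78 weeks, where deviations of the same number correlated highest with each other (adjusted p by limma from 0.728 to 0.981). By age the replicate block took the call from Loxl1 at 78 against 21 weeks (0.34, limma adjusted p = 0.0521) and changed the calls of all rows to 3187, 18935 and 10635. At this signal over background, nothing can be said of Mmp3 or Mmp9.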
